A study of Mus musculus with 12 samples.

Results

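Brown and beige adipocytes burn fuel to make heat, and 10 genes that mark them or act in that programme were read in visceral fat of male C57Bl/6J mice on 4 diets: Ucp1, Ucp2, Ucp3, Cidea, Dio2, Prdm16, Elovl3, Adrb3, Tbx1 and Tmem26. A member was measured by the array probe sets whose platform annotation names that gene and no other, and its value on an array was the median of their log2 intensities. This gave 84 probe sets for 9 of the 10 genes, out of 20358 genes and 241576 probe sets on the array. No probe set was annotated to Adrb3 alone, and this β3-adrenergic receptor was not analysed here.

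All mice ate a diet with 20% (w/w) partially hydrogenated vegetable shortening, of which the trans fatty acids made up 8.68% (w/w) of the diet, so every group carried the trans fat and no group without it was compared. The TFA group drank plain water. The MSG+TFA group had 0.75 g/L monosodium glutamate in its water, the ASP+TFA group 0.25 g/L aspartame, and the ASP+MSG+TFA group both additives at those doses. Mothers started the diet of their group when 6 weeks old and were mated 3 weeks later. The male offspring were weaned onto it at 4 weeks and sampled at 20 weeks. There were 15 mice per diet and 3 arrays per diet, and each array carried RNA pooled from several mice, so the errors below describe the spread between pools and not between animals. The fat came from around the epididymis, the reproductive organs and the digestive organs. In such bulk tissue, fewer cells of a type and less RNA per cell cannot be told apart.

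In brown fat, noradrenaline from sympathetic nerves acts on β-adrenergic receptors and raises cyclic AMP, which frees fatty acids and switches on heat genes. Ucp1 encodes the proton carrier of the inner mitochondrial membrane that turns the respiratory gradient into heat, Dio2 the deiodinase that activates thyroid hormone inside the cell, Cidea a lipid droplet protein, and Elovl3 a fatty acid elongase. Prdm16 is a transcriptional regulator that sets the brown fate, and Tbx1, a T-box factor, and Tmem26, a membrane protein, are used as markers of beige cells within white fat. Ucp2 and Ucp3 share the protein family of Ucp1. Ucp2 is widely expressed and abundant in immune cells, and Ucp3 is mostly known from muscle and brown fat.

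The stretches just upstream of 3 members are shown because Ucp1 and Dio2, the heat carrier and the deiodinase, were dim by their gene medians and Ucp2 was the brightest member. Each is the 250 bases before the start used in the RefSeq promoter table (GRCm38.p6), printed 5′ to 3′ on the gene's own strand. For Ucp2 that start lies inside the annotated gene, and the last 21 bases of its window belong to the gene. Capitals mark matches on either strand to a TATA box (TATAAA), a full cyclic AMP element (TGACGTCA), its core (TGACG, which lies inside the full element) or a GC box (GGGCGG).
Ucp1, chr8:83290098-83290347, plus strand: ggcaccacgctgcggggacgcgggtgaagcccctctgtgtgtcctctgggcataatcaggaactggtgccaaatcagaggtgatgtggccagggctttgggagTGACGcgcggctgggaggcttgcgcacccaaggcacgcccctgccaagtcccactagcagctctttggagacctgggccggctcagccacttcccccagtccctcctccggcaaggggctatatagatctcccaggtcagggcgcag
Dio2, chr12:90739039-90739288, minus strand: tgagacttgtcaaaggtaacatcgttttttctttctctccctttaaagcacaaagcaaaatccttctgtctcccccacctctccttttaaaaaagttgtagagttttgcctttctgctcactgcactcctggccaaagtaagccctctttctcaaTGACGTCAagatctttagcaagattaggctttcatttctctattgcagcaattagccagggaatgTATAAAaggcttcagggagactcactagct
Ucp2, chr7:100493108-100493357, plus strand: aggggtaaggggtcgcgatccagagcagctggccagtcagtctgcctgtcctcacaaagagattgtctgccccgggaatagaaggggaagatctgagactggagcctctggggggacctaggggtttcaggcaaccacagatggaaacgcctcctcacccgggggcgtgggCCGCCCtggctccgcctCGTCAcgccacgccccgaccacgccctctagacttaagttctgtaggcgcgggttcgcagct
The Dio2 window held 1 TATA box and 1 full cyclic AMP element, which are present in 12.4% and 1.55% of 32851 RefSeq promoter windows of the same length. The Ucp1 and Ucp2 windows each held 1 copy of the cyclic AMP core outside any full element. The core, inside a full element or not, was found in 17.8% of windows. The Ucp2 window also held 1 GC box, found in 32.7%. The Ucp2 window had 16 CpG dinucleotides, Ucp1 12 and Dio2 2, against a median of 6. A match is a description of these letters and not a measured binding site.

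To tell a measured level from background, the dim level was set at a log2 intensity of 6.61. Below it, 90% of 1163 receptor genes of smell and pheromone sensing had their mean. These genes were taken to be mostly unused in fat, which was not tested. Single probe sets are set against the same level below, although it was drawn from gene values and not from single probe sets. Above the dim level lay 11538 of the 20358 genes on average. On 4 arrays, replicates 1 and 2 of TFA and of MSG+TFA, these receptor genes were raised as a group (medians of 6.40 to 6.76, against 5.44 to 5.66 on the other 8), and these are called the raised arrays. Neither aspartame diet has one, so the aspartame diets and the absence of raised arrays can only partly be separated. More genes were above the dim level on the raised arrays, 12317 to 13059 against 11021 to 11382 elsewhere. Gene values also spread less there, with an interquartile range of 2.19 to 2.39 against 2.95 to 3.12. A higher reading on raised arrays is therefore not particular to the members. The share of all genes without overlap between raised and other arrays is not given here, so such a gap is not read as a result about a member. The tissue also varied in what came with it: Crisp1, an epididymis gene, stood at 12.43 to 13.85 on 8 arrays and at 5.60 to 6.50 on the other 4, namely replicate 2 in TFA and in MSG+TFA, and replicate 3 in both diets with aspartame. White adipocyte genes were bright throughout, with Adipoq between 12.89 and 13.42 and Plin1 between 11.97 and 12.51, and all 16 genes of that list were above the dim level.

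Of the 9 measured genes, 2 were above the dim level on all 12 arrays (Ucp2 and Ucp3), 6 on some arrays and 1, Ucp1, on none. Over the 12 arrays, the mean was above the dim level for 3, namely Ucp2, Ucp3 and Cidea. Tbx1 and Tmem26 were above it in the mean of the TFA and the MSG+TFA diet. Dio2, Prdm16 and Elovl3 were below it in the mean of every diet. Differences between diets are therefore given for 5 members, and for the other 4 the levels alone. The differences of Tbx1 and Tmem26, which passed the dim level on the 4 raised arrays alone, are not read as effects of diet. On those arrays the receptor genes themselves had medians of 6.40 to 6.76.

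**Figure D1:**
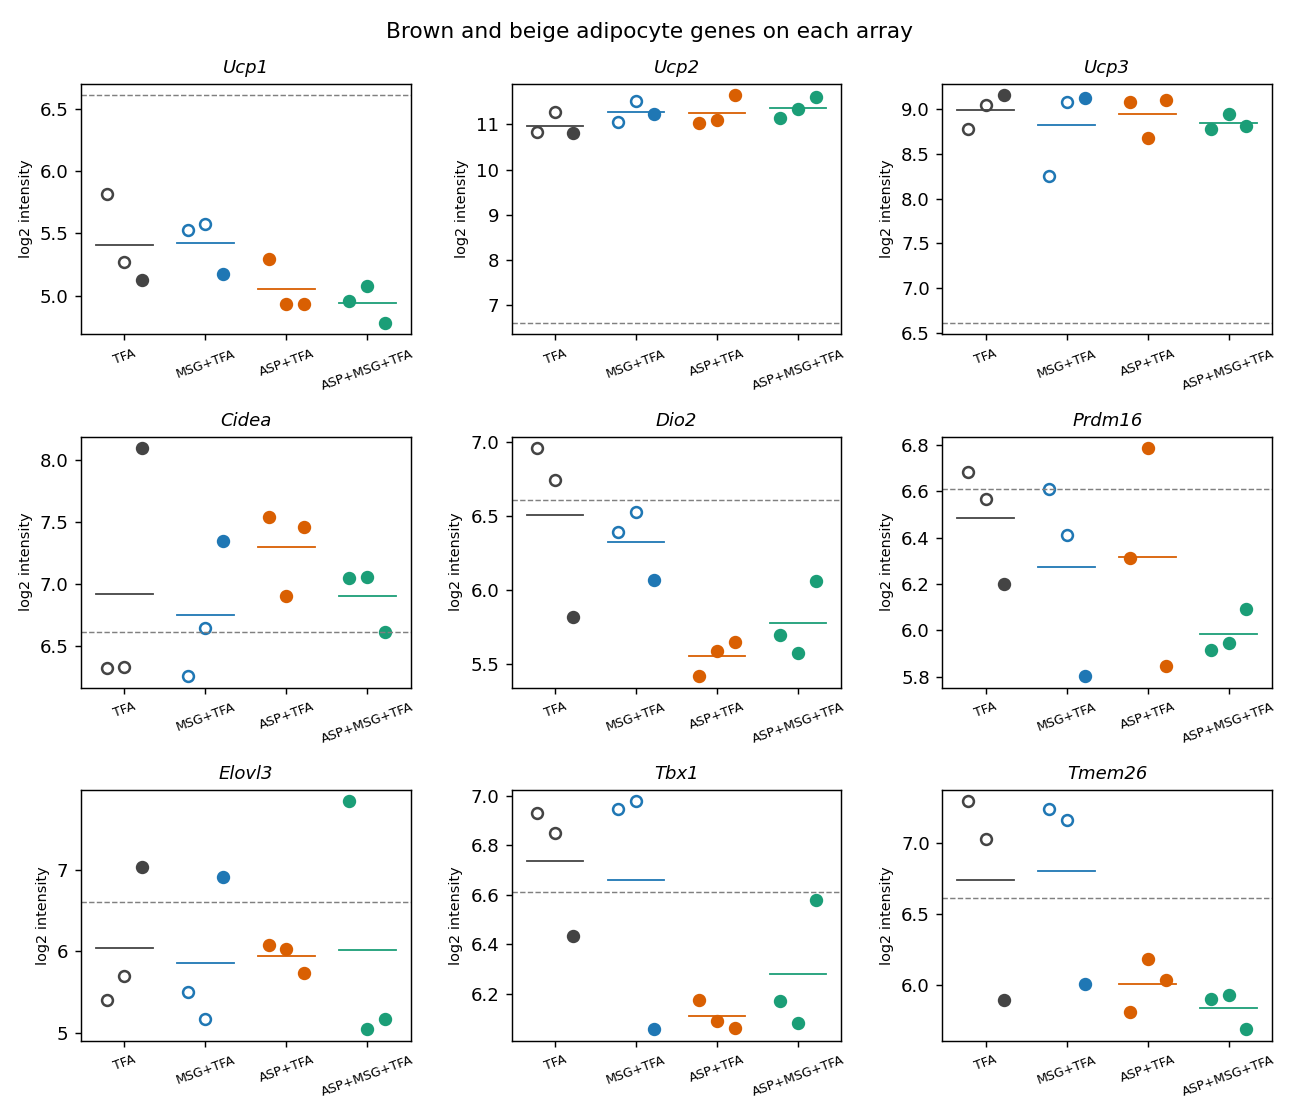
Log2 intensity (vertical axis, different range in each panel) of the 9 measured genes on each of 12 arrays, by diet (horizontal axis). Points are arrays from replicate 1 to 3 within a diet, open points are the 4 raised arrays, short lines are diet means and the dashed line is the dim level of 6.61. Ucp2 and Ucp3 lie above it on all arrays and Ucp1 on none, and the open points of Dio2, Tbx1 and Tmem26 lie above all filled ones. The share of all genes with that order is not given here.

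Ucp1 was read at 5.82, 5.27 and 5.13 on the TFA arrays, 5.53, 5.57 and 5.17 on MSG+TFA, 5.30, 4.93 and 4.93 on ASP+TFA, and 4.96, 5.08 and 4.78 on ASP+MSG+TFA. None of the 12 values reached the dim level, and the mean of 5.20 stood at the 5.69 percentile of all genes. The arrays of ASP+MSG+TFA lay below those of TFA without overlap, but with all diets dim no difference is read from it. Of its 6 probe sets, 1 was above the dim level on average, probe set 10573153, which read 7.39 to 7.87 where arrays were raised and 5.47 to 6.48 elsewhere. Probe set 10573157 read 7.02, 7.05 and 6.77 on 3 raised arrays, 6.47 on MSG+TFA replicate 1, and 4.91 to 5.60 elsewhere. The gene value of Ucp1 could not be told from background at these intensities.

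Ucp2 was the brightest member, at the 97.0 percentile of all genes. Its log2 intensity was 10.83, 11.28 and 10.81 on TFA, 11.06, 11.53 and 11.24 on MSG+TFA, 11.03, 11.09 and 11.65 on ASP+TFA, and 11.15, 11.35 and 11.60 on ASP+MSG+TFA. The diets overlap, with both of the lowest values on TFA and the mean of TFA the lowest of the 4. The diet means were 10.98 ± 0.27, 11.28 ± 0.24, 11.26 ± 0.34 and 11.37 ± 0.23 (SD, n = 3 each), and the means of the 3 additive diets lie within 1 SD of each other. Against TFA the difference was 0.30 ± 0.21 (SE) for MSG+TFA, 0.28 ± 0.21 for ASP+TFA and 0.39 ± 0.21 for ASP+MSG+TFA, the last with a 95% interval from -0.08 to 0.87. None passed the test (adjusted p of 1.00, 0.416 and 0.238 over all genes, limma).

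The gene value of Ucp2 rested largely on probe set 10555398, which was the median of the 11 on 10 of 12 arrays and which varied more than most. The mean of the 11 probe sets was 10.39, 10.54 and 10.31 on TFA, 10.48, 10.81 and 11.02 on MSG+TFA, 10.77, 10.83 and 11.13 on ASP+TFA, and 11.02, 11.01 and 11.11 on ASP+MSG+TFA. On this scale every array of the aspartame diets lay above every TFA array, and the difference from TFA was 0.35, 0.50 and 0.63, with adjusted p of 1.00, 0.158 and 0.1001. Taken singly, all 11 probe sets had a higher mean than in TFA in each additive diet. The arrays did not overlap for 6 of them in MSG+TFA, 9 in ASP+TFA and 10 in ASP+MSG+TFA, against 2.6%, 9.79% and 15.4% of all 241576 probe sets that were higher without overlap. The 11 probe sets read the same RNA pools, so they are not separate replicates. Their median difference was 0.34, 0.51 and 0.62, and the smallest adjusted p over all probe sets was 1.00, 0.158 and 0.103. At adjusted p under 0.05 and at least 1.4-fold, 0% of all probe sets were called in each of the 3 comparisons.

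**Figure D2:**
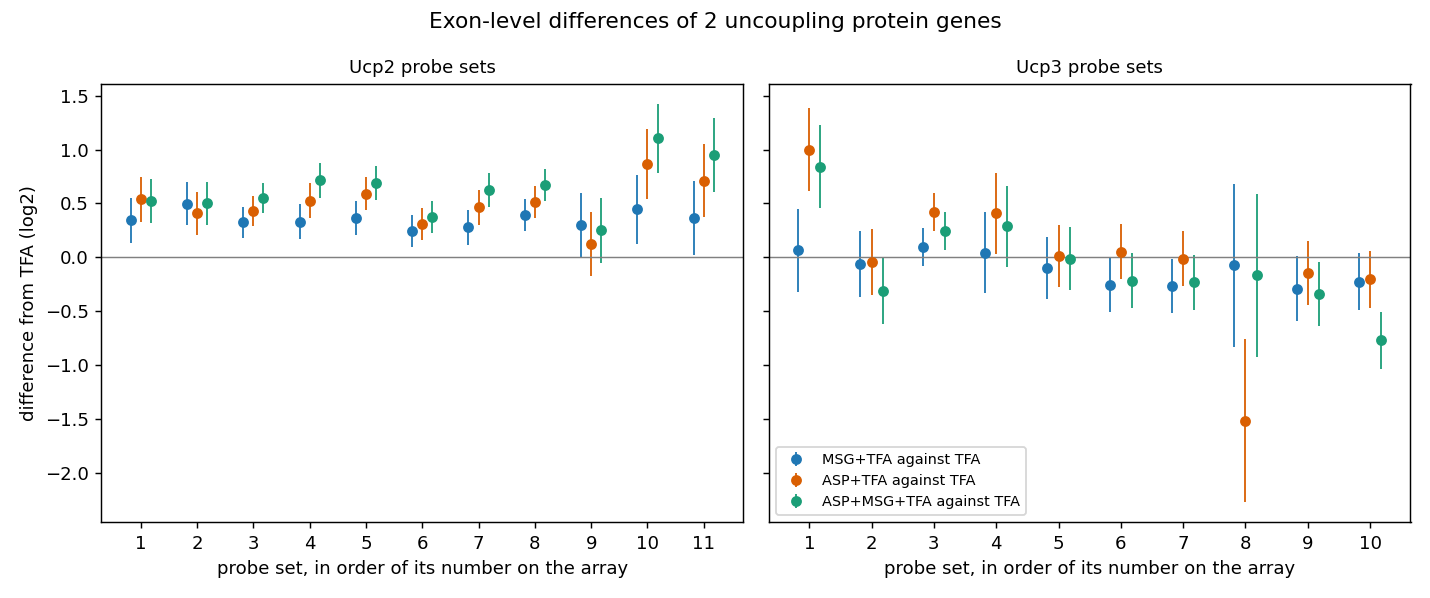
Difference from TFA (vertical axis, log2, bars ± 1 SE) of the 11 Ucp2 and the 10 Ucp3 probe sets (horizontal axis, order on the array), in 3 colours for the 3 additive diets. All Ucp2 points lie above 0, while Ucp3 probe sets lie on both sides, the lowest being the eighth in ASP+TFA at -1.52.

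Macrophage transcripts ran with Ucp2 over the arrays, and epididymis RNA ran against its gene median within diets. By that median the highest Ucp2 value in each of the 4 diets fell on the array low in Crisp1. On the mean of the 11 probe sets this held in TFA, ASP+TFA and ASP+MSG+TFA. In MSG+TFA the highest mean was 11.02 on replicate 3, where Crisp1 stood at 12.47, against 10.81 on replicate 2, low in Crisp1. The differences below are of the gene median. With the Crisp1 class as a term, an alternative chosen after seeing the data, the differences stayed at 0.30, 0.28 and 0.39 while the SE fell to 0.12, with p of 0.0302, 0.0389 and 0.00823 and adjusted p of 1.00, 0.184 and 0.108. Among the 4 arrays low in Crisp1 the difference from TFA was 0.25, 0.37 and 0.32, and among the other 8 it was 0.33, 0.24 and 0.43. In the MSG+TFA comparison, where arrays of the same number deviated together, the 3 pairs differed by 0.23, 0.25 and 0.43, and a fit of these diets with the replicate number as a block gave 0.30 ± 0.12 with adjusted p = 0.781.

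The genes most like Ucp2 over the 12 arrays were Pfn1, an actin-binding protein (Pearson r = 0.935), Gpnmb, a glycoprotein of lipid-laden macrophages (0.928), and Cd68, a macrophage lysosomal protein (0.924). Over the 8 arrays that are not raised the values were 0.961, 0.904 and 0.907, and all points share diets and pools. Cd68 ran from 9.92, 10.87 and 10.14 on TFA to 10.28, 11.50 and 11.36 on MSG+TFA, 10.49, 10.37 and 11.71 on ASP+TFA, and 11.22, 11.15 and 11.59 on ASP+MSG+TFA. Adgre1, a receptor on the macrophage surface, was between 9.01 and 10.40. The mean level of the 13 measured macrophage markers, 11 of them above the dim level in the MSG+TFA and the ASP+MSG+TFA comparison and 10 in the ASP+TFA comparison, ranged over 7.83 to 8.23 on TFA, 7.72 to 8.58 on MSG+TFA, 7.88 to 8.69 on ASP+TFA and 8.41 to 8.62 on ASP+MSG+TFA. The mean of the 12 measured lymphocyte markers, 5, 5 and 8 of them above the dim level in the 3 comparisons, ranged over 6.16 to 6.45 on TFA, 6.31 to 6.46 on MSG+TFA, 5.95 to 6.30 on ASP+TFA and 6.57 to 6.71 on ASP+MSG+TFA. Of the lymphocyte markers 0, 2 and 6 were higher than TFA without overlap, and 0, 4 and 1 lower. Of the macrophage markers 0, 1 and 8 were higher without overlap, and 0, 1 and 1 lower. Among all genes 2.06%, 7.17% and 13.7% were higher without overlap, and 2.53%, 11.7% and 17.9% lower. The part of either cell type in the Ucp2 values was not tested.

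**Figure D3:**
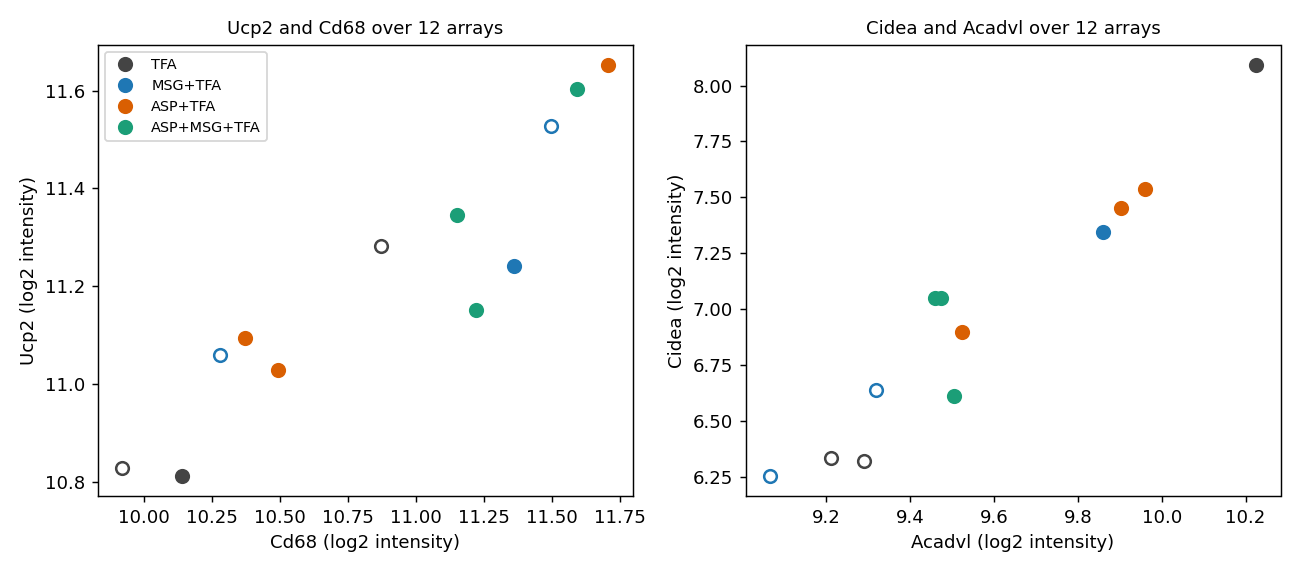
Left, log2 intensity of Ucp2 (vertical) against Cd68 (horizontal); right, Cidea (vertical) against Acadvl (horizontal). Each point is 1 of 12 arrays, coloured by diet, open for the raised arrays. Ucp2 and Cd68 lie along a line (r = 0.924), as do Cidea and Acadvl (r = 0.962).

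Ucp3, the neighbour of Ucp2 on chromosome 7, was measured well above the dim level in all diets. It was 8.77, 9.04 and 9.16 on TFA, 8.25, 9.08 and 9.13 on MSG+TFA, 9.08, 8.67 and 9.10 on ASP+TFA, and 8.77, 8.94 and 8.82 on ASP+MSG+TFA. The 4 diets overlap, and MSG+TFA replicate 1 is the lowest array. The differences from TFA were -0.17 ± 0.23, -0.04 ± 0.23 and -0.15 ± 0.23 (adjusted p of 1.00, 0.924 and 0.686), and the 95% intervals reached from -0.68 to 0.33, from -0.55 to 0.46 and from -0.65 to 0.36. With the raised arrays as a term the differences in ASP+TFA and ASP+MSG+TFA were -0.28 and -0.38, and with the Crisp1 class as a further term -0.37 and -0.48 (adjusted p of 0.577 and 0.393). Its probe sets did not go together: probe set 10555379 was 1.00 ± 0.38 above TFA in ASP+TFA (adjusted p = 0.210), and probe set 10555388 was at -0.77 ± 0.26 in ASP+MSG+TFA (adjusted p = 0.149). Probe set 10555386, the brightest, stood at 6.80 on ASP+TFA replicate 1 and at 10.14 to 10.87 on the 11 other arrays, and the gene's median does not follow that array.

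Markers of skeletal muscle, which also expresses Ucp3, were mostly dim. Acta1, the actin of muscle, was between 8.95 and 10.03 and Ckm, muscle creatine kinase, between 6.40 and 7.76, while 4 of the 15 measured muscle markers were above the dim level and the list's mean ranged over 5.93 to 6.73. The part of muscle in the Ucp3 level was not tested. The genes most like Ucp3 were Mrrf, a mitochondrial ribosome recycling factor (r = 0.971), Opn3, an opsin (0.961), and Slc36a2, an amino acid transporter that is itself used as a brown and beige adipocyte marker (0.951, and 0.872 over the 8 arrays that are not raised). Slc36a2 was bright, with values of 11.00 to 12.01.

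Cidea lay around the dim level and was above it on 9 of 12 arrays. It read 6.32, 6.33 and 8.09 on TFA, 6.25, 6.64 and 7.34 on MSG+TFA, 7.54, 6.90 and 7.45 on ASP+TFA, and 7.05, 7.05 and 6.61 on ASP+MSG+TFA. The spread within TFA (SD 1.02, n = 3) exceeded any difference between diets, the TFA array that is not raised being the highest of all 12 and the raised TFA arrays among the lowest. Against TFA the differences were -0.17 ± 0.45, 0.38 ± 0.45 and -0.01 ± 0.45 (adjusted p of 1.00, 0.599 and 0.990). With the raised arrays as a term they became -0.17, -0.50 and -0.90, so that the direction turned for ASP+TFA, and among the 8 arrays that are not raised they were -0.75, -0.79 and -1.19, with 1 TFA and 1 MSG+TFA array left. None of these passed the test.

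The 3 genes most like Cidea were enzymes: Oplah, 5-oxoprolinase of the glutathione cycle (r = 0.965), Acadvl, the very long chain acyl-CoA dehydrogenase of mitochondrial β-oxidation (0.962), and Suclg2, a subunit of succinyl-CoA ligase in the citric acid cycle (0.958). Over the arrays that are not raised r was 0.987, 0.931 and 0.949. Acadvl was highest on TFA replicate 3 at 10.23, the array where Cidea was highest, and lowest on MSG+TFA replicate 1 at 9.07, where Cidea was lowest.

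Dio2 was read at 6.96, 6.74 and 5.81 on TFA, 6.39, 6.52 and 6.06 on MSG+TFA, 5.42, 5.59 and 5.65 on ASP+TFA, and 5.69, 5.57 and 6.06 on ASP+MSG+TFA. The 2 values above the dim level were both on raised TFA arrays. Raised arrays held 6.39 to 6.96 and the other arrays 5.42 to 6.06, without overlap, and on the arrays that are not raised TFA replicate 3 stood inside the range of the others. Of its 8 probe sets 1 was above the dim level on average, probe set 10401844, which read 6.72 to 8.78 and so was above it on all 12 arrays. Prdm16 was at 6.68, 6.56 and 6.20 on TFA, 6.61, 6.41 and 5.80 on MSG+TFA, 6.31, 6.78 and 5.85 on ASP+TFA, and 5.92, 5.95 and 6.09 on ASP+MSG+TFA, with 2 arrays above the dim level. Its gene value was 6.41 to 6.68 on raised arrays and 5.80 to 6.78 on the others, with overlap. Within TFA and MSG+TFA the raised arrays differed from the other array by 0.56. The brightest of the 18 Prdm16 probe sets, 10519036, had a mean of 8.75, and 7 of the 18 were above the dim level on average. Probe set 10519036 read 9.38 to 9.68 on raised arrays and 7.99 to 8.73 on the others, without overlap.

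Elovl3 had the widest spread of the members. It read 5.41, 5.70 and 7.04 on TFA, 5.50, 5.17 and 6.92 on MSG+TFA, 6.08, 6.02 and 5.73 on ASP+TFA, and 7.84, 5.05 and 5.18 on ASP+MSG+TFA. A single array in each of 3 diets was above the dim level, and the diet means (6.05, 5.86, 5.95 and 6.02) were all below it. On 2 of those arrays Alb, the albumin of hepatocytes, was at its highest, 12.36 (MSG+TFA replicate 3) and 13.33 (replicate 1 of ASP+MSG+TFA), against 7.25 to 10.04 on the other 10. On TFA replicate 3, Alb was at its lowest, 7.25, while the seminal vesicle transcript Svs5 stood at 13.90. Svs5 was also bright on the second ASP+TFA array (14.14) and on the Elovl3-high array of ASP+MSG+TFA (14.00). Of 12 liver markers, 6 to 9 were above the dim level in the diets compared, and the list's mean ranged over 6.66 to 10.27. The high Elovl3 arrays of TFA and MSG+TFA are also the arrays of those diets that are not raised. Within these diets the raised arrays differed from the other array by -1.53. Over all diets raised arrays held 5.17 to 5.70 and the others 5.05 to 7.84, with overlap. The part of liver or male tract RNA in Elovl3 was not tested.

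**Figure D4:**
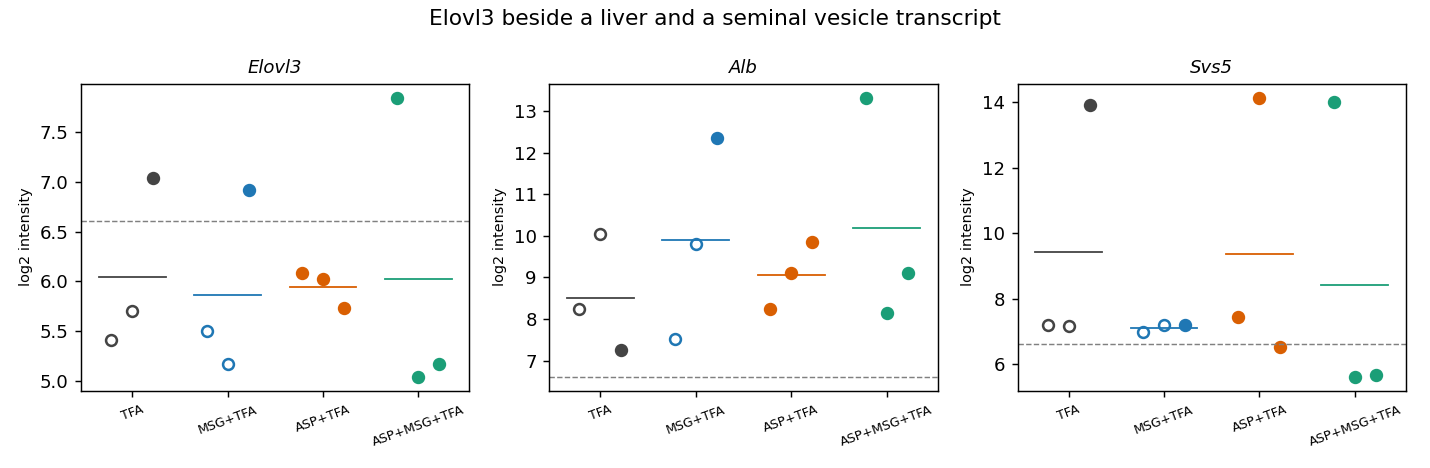
Log2 intensity (vertical axis) of Elovl3, Alb and Svs5 on each array by diet (horizontal axis), drawn as in the plot of all members. The high Elovl3 arrays of MSG+TFA and ASP+MSG+TFA are those with the highest Alb, and the high TFA array has Svs5 at 13.90. In TFA and MSG+TFA the high array is also the one that is not raised.

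The beige markers Tbx1 and Tmem26 were brighter on the raised arrays, where the receptor genes also read higher and more genes were above the dim level. Tbx1 read 6.93, 6.85 and 6.43 on TFA, 6.95, 6.98 and 6.06 on MSG+TFA, 6.17, 6.09 and 6.06 on ASP+TFA, and 6.17, 6.08 and 6.58 on ASP+MSG+TFA. Tmem26 read 7.29, 7.02 and 5.89 on TFA, 7.24, 7.16 and 6.00 on MSG+TFA, 5.81, 6.18 and 6.03 on ASP+TFA, and 5.90, 5.93 and 5.69 on ASP+MSG+TFA. Each was above the dim level on 4 arrays, and these were the 4 raised ones. The ranges of raised and other arrays were 6.85 to 6.98 against 6.06 to 6.58 for Tbx1 and 7.02 to 7.29 against 5.69 to 6.18 for Tmem26.

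Against TFA, Tbx1 differed by -0.08 ± 0.25, -0.63 ± 0.25 and -0.46 ± 0.25 in MSG+TFA, ASP+TFA and ASP+MSG+TFA (adjusted p of 1.00, 0.195 and 0.232). Tmem26 differed by 0.06 ± 0.38, -0.73 ± 0.38 and -0.90 ± 0.38 (adjusted p of 1.00, 0.264 and 0.156). Both members passed the dim level on raised arrays alone, which the aspartame diets lack, so no effect of diet is read from these differences. With the raised arrays as a term the differences in the aspartame diets were -0.17 and -0.01 for Tbx1, and 0.09 and -0.08 for Tmem26. On the 8 arrays that are not raised, Tbx1 differed by -0.32 and -0.16 and Tmem26 by 0.12 and -0.05. TFA is a single array there, so these are differences from 1 pool. Probe set 10438357 of Tbx1 was at 10.77 to 11.62 on all arrays while its gene median was dim on 8, and 4 of its 10 probe sets were above the dim level on average.

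**Figure D5:**
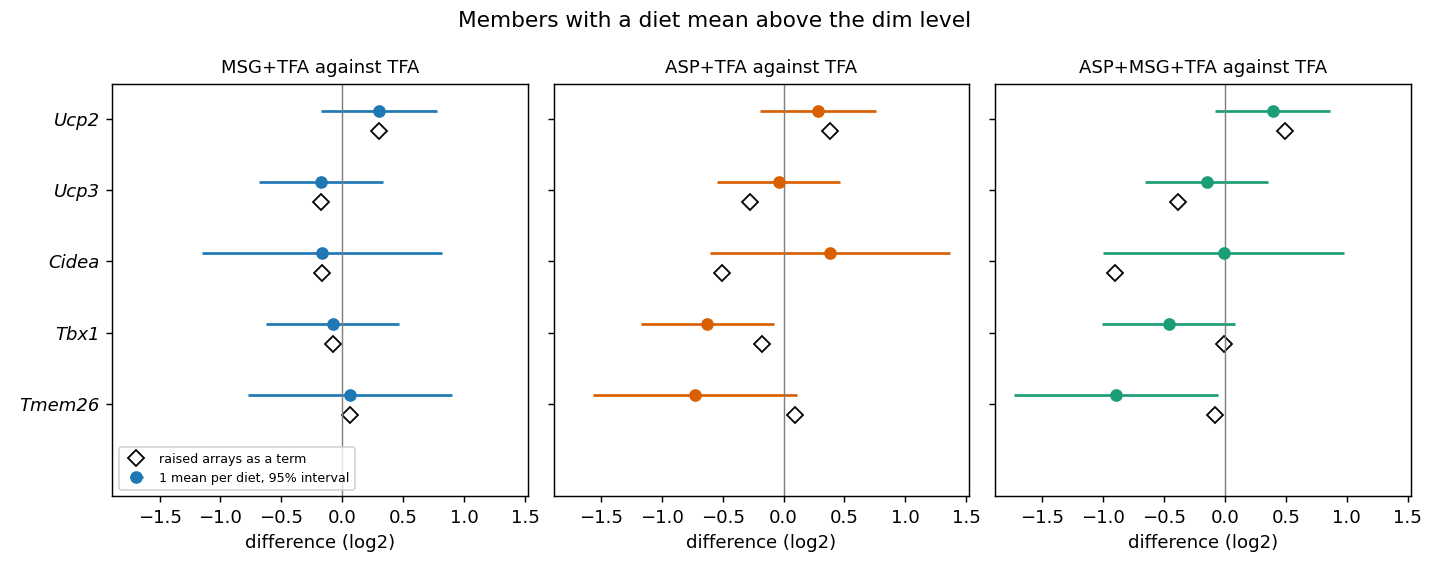
Difference from TFA (horizontal axis, log2) of the 5 members with a diet mean above the dim level, in 3 panels for the 3 additive diets. Tbx1 and Tmem26 were above the dim level on raised arrays alone. Filled points are the fit with 1 mean per diet, with 95% intervals, and open diamonds the fit with the raised arrays as a term. For Tmem26 in ASP+TFA the point lies at -0.73 and the diamond at 0.09, while for Ucp2 both lie above 0 in all panels.

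Over the whole array no gene was called. At adjusted p under 0.05 and at least 1.4-fold, 0 of the 9 members and 0% of the 20358 genes were called in MSG+TFA, ASP+TFA or ASP+MSG+TFA against TFA, and 0% in the interaction of the additives, by limma. At an unadjusted p under 0.05 there were 438, 4602 and 5850 genes in the 3 comparisons and 249 in the interaction. The methods' analysis of variance, with p under 0.05 and at least 1.4-fold but no adjustment, gave 118, 2597 and 3550 genes, and after Benjamini-Hochberg adjustment 0 in each. No member was higher than TFA without overlap between arrays, where 2.06%, 7.17% and 13.7% of all genes were. The members lower without overlap numbered 0, 2 (Dio2 and Tbx1) and 2 (Ucp1 and Prdm16), beside 2.53%, 11.7% and 17.9% of all genes. Of these only Tbx1 had a diet mean above the dim level, through its raised arrays. The median difference of the 9 members was -0.17, -0.17 and -0.46, against -0.02, -0.04 and -0.05 over all genes, and it includes the dim members. With the raised arrays as a term it was -0.17, -0.17 and -0.20, against -0.02, -0.04 and -0.05 over all genes. In the test for any difference among the 4 diets, 0 genes passed and 3692 had an unadjusted p under 0.05. Among members, Dio2 alone was of these (adjusted p = 0.255).

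Leaving out TFA replicate 3 changed these counts. It is the TFA array that is not raised, and without it the control diet consisted of raised arrays alone. Without it 5413 genes were called in ASP+TFA and 6042 in ASP+MSG+TFA. The members called were then Cidea (0.97, adjusted p = 0.0417), Dio2 and Tmem26 (-1.15, adjusted p = 0.028) in ASP+TFA, and Dio2 and Tmem26 (-1.32, adjusted p = 0.0158) in ASP+MSG+TFA.

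Other genes of heat production were read from 3 further lists. Of 36 other thermogenic genes 33 were measured and 24 to 26 were above the dim level in a comparison. None was called. Their median difference was -0.07, -0.07 and -0.14, and -0.07, -0.11 and -0.23 with the raised arrays as a term. In ASP+MSG+TFA, 8 were lower and 3 higher than TFA without overlap, beside 17.9% and 13.7% of all genes. Ppargc1a, the coactivator that drives mitochondrial biogenesis, had a mean of 8.66 ± 0.34 in TFA and 8.10 ± 0.06 in MSG+TFA, a difference of -0.56 ± 0.23 (adjusted p = 1.00), and it differed by -0.03 in ASP+TFA and -0.60 in ASP+MSG+TFA (adjusted p of 0.944 and 0.140). Ppara, the fatty acid receptor of oxidation genes, differed by -0.52, -0.53 and -0.79 in the 3 diets (SE 0.23 each, adjusted p of 1.00, 0.214 and 0.123). Cox7a1 and Cox8b, oxidase subunits typical of brown fat and muscle, were at -0.45 ± 0.19 and -0.41 ± 0.20 in MSG+TFA, -0.07 and -0.11 in ASP+TFA, and -0.51 and -0.57 in ASP+MSG+TFA. Plin5, a lipid droplet protein of oxidative cells, was at -0.56 ± 0.17 and -0.74 ± 0.17 in the aspartame diets and Mtus1 at 0.53 ± 0.15 in each (adjusted p of 0.186 and 0.123). With the raised arrays as a term, Plin5 was at -0.33 and -0.51 and Mtus1 at 0.31 in each. Pm20d1, an enzyme that makes uncoupling N-acyl amino acids, stood 1.05 ± 0.30 above TFA in ASP+MSG+TFA, and Elovl6, another elongase, 0.74 ± 0.38 in ASP+TFA. Where no value with that term is given, here and in the lists below, the difference is from the fit with 1 mean per diet. In that fit the aspartame diets and the absence of raised arrays are not separated.

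Of 30 genes tied to brown or beige fate 29 were measured, 0 were called, and the median difference was 0.00, -0.01 and -0.01. Zic1, a marker of classical brown fat, was at 5.73 to 6.67. Meox2, a homeobox gene of muscle and fat precursors, was 1.31 ± 0.34 above TFA in ASP+MSG+TFA (adjusted p = 0.123), and 0.71 with the raised arrays as a term. Pdgfra, the receptor of fat precursor cells, was 0.77 ± 0.19 above TFA in ASP+TFA (adjusted p = 0.186), and 1.02 with that term. Zfp516, a partner of Prdm16, was at -0.37 ± 0.13 in MSG+TFA. Irf4, a transcription factor of the thermogenic programme, was 1.15 ± 0.38 above TFA in ASP+TFA, and 0.65 with that term. Sp100 stood 0.57 ± 0.26 above TFA in ASP+MSG+TFA.

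The third list was drawn up for heat-producing cycles that do not need Ucp1, such as creatine, calcium and lipid cycling. A place on it does not make a gene part of such a cycle. All 20 of its genes were measured with 0 called. Median differences were -0.05, -0.04 and -0.07. Fto was 0.50 ± 0.21 above TFA in ASP+TFA and 0.08 with the raised arrays as a term. Gpd2, the mitochondrial glycerol phosphate dehydrogenase, was at -0.44 ± 0.21 in MSG+TFA and -0.36 ± 0.21 in ASP+MSG+TFA. Dgat1, which completes triglyceride synthesis, was at -0.27 ± 0.15 and Gamt, which makes creatine, at 0.46 ± 0.27 in ASP+MSG+TFA. Th, the enzyme of noradrenaline synthesis that marks sympathetic nerve, was below the dim level on all arrays, between 4.76 and 6.10. Of the 9 sympathetic nerve markers measured, 2 were above the dim level in each comparison and 0 were called. All 9 were lower than TFA in each aspartame diet, beside 10987 and 11000 of the 20358 genes. The median difference was -0.51 in ASP+TFA and -0.37 in ASP+MSG+TFA, and -0.23 and -0.15 with the raised arrays as a term. Most of these markers were dim, so no difference between diets is read from them. Lower without overlap were 0, 4 and 1 of them in the 3 diets, beside 2.53%, 11.7% and 17.9% of all genes. The list's mean ranged over 6.13 to 6.41 on TFA, 5.87 to 6.17 on MSG+TFA, 5.54 to 5.76 on ASP+TFA and 5.69 to 5.98 on ASP+MSG+TFA, and the part of nerve in the members' values was not tested.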

How the data were processed

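Each of 4 diets was represented by 3 Affymetrix arrays (Mouse Gene 1.0 ST, 12 in all), and groups were read from the sample titles. The deposited values are linear intensity per probe set, which the authors background-adjusted and quantile-normalized (GCRMA in Partek, per the study's methods and the submitters' processing notes) and which were turned into log2 values here. Scanner files were not used, and no scan date was read. Median intensity per array was 144.9 to 150.6. The number of arrays limits the precision.

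Of 241576 probe sets, 212138 named 1 gene, 4672 several and 24766 none in the platform annotation, and only the first were used. Symbols were updated through RefSeq (17626 current, 2743 updated, 53 kept). A gene's value was the median of its probe sets. Diets were compared with limma 3.58.1 in R 4.3.3, with 1 mean per diet on all 12 arrays (8 residual degrees of freedom), moderated two-sided tests and Benjamini-Hochberg adjustment over all 20358 genes. Calls needed an adjusted p under 0.05 and at least 1.4-fold (no fold limit for the interaction and for the test among the 4 diets). The fit was checked on simulated data. The members and gene lists were chosen with earlier results of these data known. Of each list, up to 4 genes above the dim level with the smallest unadjusted p per comparison were eligible to be named, and the 3 genes most correlated with each member above it. Zic1 and Th were named in addition as markers, with their levels only. RefSeq promoters matched 7 of the 10 genes.

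Replicate numbers are shared by the diets. Deviations of same-numbered arrays from their diet means correlated at 0.593, 0.632 and 0.661 between TFA and MSG+TFA, so the numbers were taken to pair these diets. Replicates 1 and 2 are raised arrays in both, which these correlations include, and the labels do not say what the number marks. They correlated at 0.243, -0.344 and -0.117 between TFA and ASP+TFA and at 0.146, -0.362 and -0.146 between TFA and ASP+MSG+TFA, which were not taken as paired. Alternatives covered the summary over probe sets, the samples and terms in the fit, normalization, a filter on dim genes, the variance model, the test and leaving out each array.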

Additional observations from a re-analysis of the deposited data

How the results depend on the processing

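The count of called genes in ASP+TFA against TFA was 0, and was 1 with the brightest probe set, 64 with epididymis RNA and raised arrays as terms, and 0 to 5413 without 1 array. In ASP+MSG+TFA it was 2 with the brightest probe set, 2 with the replicate block, 40 with epididymis RNA and raised arrays as terms, and 0 to 6042 without 1 array. Among the 4 diets it was 1, 36 and 0 to 3786 in the same alternatives apart from the block. In each case the high end was reached without TFA replicate 3. The members called without 1 array were 0 to 3 in ASP+TFA and 0 to 2 in ASP+MSG+TFA, and 0 under the other alternatives. The terms for epididymis RNA were chosen after seeing the data.

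For member differences, 335 of the alternatives kept the direction and the call, 21 turned the direction and 3 passed the threshold. Apart from leaving out single arrays, those that turned were Tbx1 in MSG+TFA (0.021 with quantile normalization), Tmem26 in MSG+TFA (-0.089 with the mean of the probe sets), Cidea in ASP+TFA (-0.50 with the raised term, -0.79 on arrays that are not raised, -0.51 with both terms), Tmem26 in ASP+TFA (0.093, 0.12 and 0.14 in the same 3) and Cidea in ASP+MSG+TFA (0.28 with quantile normalization). The cause was not tested. Without 1 array, differences in MSG+TFA ran from -0.33 to 0.11 for Ucp3, -0.47 to 0.42 for Cidea, -0.24 to 0.22 for Tbx1 and -0.36 to 0.46 for Tmem26. In ASP+TFA they ran from -0.15 to 0.10 for Ucp3, 0.09 to 0.97 for Cidea and -1.15 to -0.45 for Tmem26, and in ASP+MSG+TFA from -0.31 to 0.58 for Cidea and -1.32 to -0.62 for Tmem26. Ucp2 stayed above TFA in all alternatives run (0.09 to 0.63). In a replicate block fit of all diets, Ucp2 in MSG+TFA was 0.30 with an adjusted p of 1.00, and the block changed no call of a member. Depth does not apply to arrays, and signal near the dim level limits Cidea, Tbx1 and Tmem26.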
